A study of Mus musculus with 4 samples.

Results

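Gata4, Gata6, Foxa2, Hnf4a, Gsc, Mixl1 and Mesp1, 7 transcription factor genes of early endoderm and mesendoderm, were examined for peaks of Sox2 and its variants in mouse embryonic stem cells. They are 7 of the 21887 protein-coding genes that were counted in the same way. They were chosen by name, with earlier results of these data known. A gene was given every peak whose centre lay in its mm10 gene body or within 50 kb of it, per library. The data were ChIP-exo peak lists, in which an exonuclease trims isolated DNA up to the crosslinked protein, and there was 1 library in each of 4 groups. Halo-Sox2D, a fusion of HaloTag to Sox2 residues 1 to 120, was mapped on HaloLink resin, a support that captures the tag. Halo-Sox2M, a fusion whose label lists M47G, F50 and M51G as its changes (with no new residue named for F50), and Halo-Sox2, the fusion without these changes, were mapped on the same resin. Endogenous Sox2 was mapped with an anti-Sox2 antibody. All cells were of the D3 embryonic stem cell line. How the fusions were expressed, and whether those cells also held endogenous Sox2, is not given in the sources used here.

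Sox2 is an HMG-box factor that works with Oct4 to keep embryonic stem cells pluripotent and that later marks neural rather than mesendodermal cells. The genes examined are known to be off or low in undifferentiated stem cells and to come on as cells enter endoderm or the primitive streak. Gata4 and Gata6 encode zinc finger factors of primitive endoderm, Foxa2 a forkhead factor of definitive endoderm and the node, and Hnf4a a nuclear receptor of visceral endoderm and liver. Gsc and Mixl1 encode homeobox factors of the organizer and the primitive streak, and Mesp1 a basic helix-loop-helix factor of early cardiac mesoderm. A peak list gives places and no expression, so the state of these genes in the cells used was not measured.

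The Halo-Sox2D list held 13833 peaks and the Halo-Sox2M list 1711, while that of Halo-Sox2 held 6558 and that of endogenous Sox2 7153. The lists carry no scores or read numbers, so depth is unknown, and the length of a list cannot be told apart from depth or calling threshold. Since each group was 1 library, nothing below was checked in replicates or given a p-value. Intervals are exact 95% binomial intervals that cover counting error only.

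The starts of 4 of these genes could be read from the RefSeq promoter table (GRCm38.p6, the coordinates of mm10), which holds 250 bases before to 50 after each start. The outermost start of each is shown because the peaks described below lie around these windows and none lies in them. Capitals mark the Sox core letters ACAAT or their reverse complement ATTGT.
Foxa2, chr2:148046920-148047219, minus strand: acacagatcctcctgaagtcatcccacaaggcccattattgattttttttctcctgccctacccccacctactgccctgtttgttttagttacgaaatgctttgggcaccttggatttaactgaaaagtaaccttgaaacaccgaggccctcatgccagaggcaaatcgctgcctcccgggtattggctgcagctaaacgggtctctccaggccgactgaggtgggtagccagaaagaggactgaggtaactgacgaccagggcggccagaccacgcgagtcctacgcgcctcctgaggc
Hnf4a, chr2:163506607-163506906, plus strand: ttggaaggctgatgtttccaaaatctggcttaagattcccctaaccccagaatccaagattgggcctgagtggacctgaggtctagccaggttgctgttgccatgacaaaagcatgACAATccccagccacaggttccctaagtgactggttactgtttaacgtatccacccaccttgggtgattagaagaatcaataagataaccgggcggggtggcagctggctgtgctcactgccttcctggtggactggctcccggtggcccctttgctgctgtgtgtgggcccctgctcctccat
Gsc, chr12:104473187-104473486, minus strand: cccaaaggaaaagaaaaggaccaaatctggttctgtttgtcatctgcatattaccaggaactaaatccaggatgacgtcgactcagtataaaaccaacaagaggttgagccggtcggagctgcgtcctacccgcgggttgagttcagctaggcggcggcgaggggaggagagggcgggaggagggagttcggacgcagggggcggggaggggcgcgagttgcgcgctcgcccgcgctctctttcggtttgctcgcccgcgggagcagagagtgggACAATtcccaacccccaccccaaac
Mesp1, chr7:79793541-79793840, minus strand: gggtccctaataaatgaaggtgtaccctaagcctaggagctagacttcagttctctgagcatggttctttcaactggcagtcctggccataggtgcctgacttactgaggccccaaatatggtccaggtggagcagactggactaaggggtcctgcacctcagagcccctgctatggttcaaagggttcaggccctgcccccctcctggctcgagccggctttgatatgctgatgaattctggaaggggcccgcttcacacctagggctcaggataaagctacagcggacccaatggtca

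The table lists 7 start windows for these 4 genes, since Foxa2 has 3 and Hnf4a has 2. No peak centre of any library lay in them. Among all 32851 windows of the table, 4.46% held a Halo-Sox2D centre, 0.237% a Halo-Sox2M centre, 0.734% a Halo-Sox2 centre and 0.472% an endogenous Sox2 centre, so a count of 0 in 7 windows says little. ACAAT on either strand was found in 2 of the 7 windows, 134 bases before the upstream Hnf4a start and 25 bases after the Gsc start, against 31.0% of all windows. The longer ACAATG, which contains ACAAT, was in 0 of 7 (12.6% of all windows) and the octamer ATGCAAAT, bound by Oct4, in 0 of 7 (1.74%). The GATA letters GATAA, on either strand, were in 3 of 7, at Foxa2 (in a start window that is not printed above), Hnf4a and Mesp1, against 25.4%. These matches describe letters and not bound sites.

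Peaks near the 7 genes were few in every library, and 1 of them lay inside the body of a gene of the 7. In total 12 peaks fell in the windows: 9 of Halo-Sox2D, 0 of Halo-Sox2M, 2 of Halo-Sox2 and 1 of endogenous Sox2. Halo-Sox2D had a peak at 5 of the 7 genes, where 57.7% of all protein-coding genes had one. Halo-Sox2M had a peak at 0 of 7 (6.37% of all), Halo-Sox2 at 2 of 7 (32.3%) and endogenous Sox2 at 1 of 7 (27.4%). As shares of the 7 genes these counts carry wide intervals, namely 29.0 to 96.3% (Halo-Sox2D), 0 to 41.0% (Halo-Sox2M), 3.67 to 71.0% (Halo-Sox2) and 0.361 to 57.9% (endogenous Sox2). Each interval includes the share of all protein-coding genes in the same library.

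**Figure D1:**
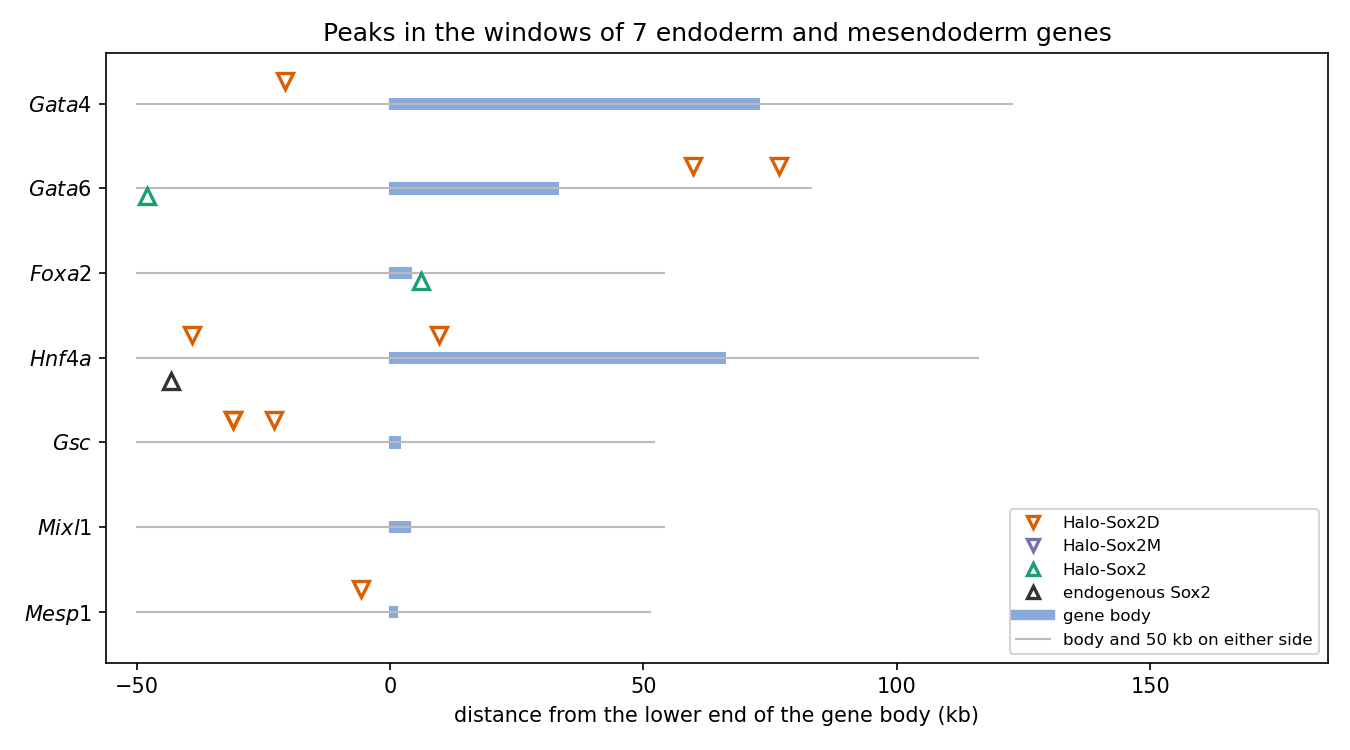
Peaks of the 4 libraries in the windows of the 7 genes, 1 row per gene, with distance from the lower end of the gene body in kb on the x axis; boxes are gene bodies, grey lines add 50 kb on either side, and each triangle is a peak centre. Halo-Sox2D gives 9 of the 12 peaks (2 at Gsc lie too close to be seen apart), 1 peak lies inside a gene of the 7, at Hnf4a, and Mixl1 has none.

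Among the factors of primitive endoderm, Gata4 (gene 14463, mm10 chromosome 14, 63198914 to 63271712) had 1 Halo-Sox2D peak and no peak of Halo-Sox2M, Halo-Sox2 or endogenous Sox2. That peak, at 63178106 to 63178122, lay 20.8 kb below Gata4, inside Fdft1, the gene of squalene synthase. Gata6 (gene 14465, chromosome 18, 11052510 to 11085636) had 2 Halo-Sox2D peaks, 0 Halo-Sox2M peaks, 1 Halo-Sox2 peak and 0 endogenous Sox2 peaks. Gata6 was the nearest protein-coding gene of all 3. The Halo-Sox2D peaks lay 26.7 and 43.6 kb above it, and the Halo-Sox2 peak lay 47.99 kb below it, within the lncRNA gene 9130001E16Rik. Thus the truncated and the full fusion had peaks on opposite sides of Gata6, 107.8 kb apart at their nearest.

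Foxa2 (gene 15376, chromosome 2, 148042877 to 148046969) was the one gene of the 7 with a Halo-Sox2 peak and no Halo-Sox2D peak, a pattern of 7.19% of all protein-coding genes. It had 0 Halo-Sox2D, 0 Halo-Sox2M, 1 Halo-Sox2 and 0 endogenous Sox2 peaks. The Halo-Sox2 peak at 148049006 to 148049024 lay 2.05 kb upstream of the outermost Foxa2 start shown above, and it was the nearest Halo-Sox2 peak to any of the 7 genes. The nearest Halo-Sox2D peak was 356.4 kb from Foxa2 and the nearest endogenous Sox2 peak 654.2 kb. No other protein-coding gene reached into the 50 kb around Foxa2.

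Hnf4a (gene 15378, chromosome 2, 163506811 to 163572907) had 2 Halo-Sox2D, 0 Halo-Sox2M, 0 Halo-Sox2 and 1 endogenous Sox2 peaks. It was the one gene of the 7 with an endogenous Sox2 peak within 50 kb. A Halo-Sox2D peak at 163516547 to 163516556 lay inside the gene, 9.69 kb downstream of the upstream start and between the 2 annotated starts, where the antisense lncRNA gene Hnf4aos also runs. Whether the place is exonic or intronic was not determined. The other Halo-Sox2D peak, at 163467710 to 163467722, lay 39.1 kb below Hnf4a and 0.987 kb from Fitm2, a gene of lipid droplet formation. The endogenous Sox2 peak, at 163463495 to 163463509, lay 43.3 kb below Hnf4a and 5.20 kb from Fitm2. These last 2 peaks were 4.21 kb apart, the shortest distance between libraries in any of the 7 windows, and both lay nearer to Fitm2 than to Hnf4a.

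Of the genes of the primitive streak, Gsc (gene 14836, chromosome 12, 104471209 to 104473236) had most, with 3 Halo-Sox2D peaks and 0 peaks of Halo-Sox2M, Halo-Sox2 and endogenous Sox2. Of all protein-coding genes, 22.2% had 3 or more Halo-Sox2D peaks. The peaks lay 22.8, 30.9 and 31.0 kb below Gsc, which is downstream on its minus strand. The far pair, with centres 0.0855 kb apart, lay beside the lncRNA gene Gm40562, and its nearest protein-coding gene was Serpina3n, a serine protease inhibitor, at 25.9 kb. Mesp1 (gene 17292, chromosome 7, 79792241 to 79793590) had 1 Halo-Sox2D peak and 0 of the other libraries. It lay at 79786417 to 79786436, 5.81 kb below Mesp1 and 0.475 kb from Wdr93. The same peak fell in the window of Mesp2, a paralog used in somite formation. Mixl1 (gene 27217, chromosome 1, 180693043 to 180697034) had 0 peaks in each of the 4 libraries, as did 31.1% of all protein-coding genes.

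List length was set against these counts in several ways. The Halo-Sox2D list exceeded the Halo-Sox2 list 2.11-fold in length and the endogenous Sox2 list 1.93-fold. Per 1000 peaks of each list, the 7 windows held 0.651 Halo-Sox2D peaks (0.298 to 1.23), 0.305 Halo-Sox2 peaks (0.0369 to 1.10) and 0.140 endogenous Sox2 peaks (0.00354 to 0.779). For Halo-Sox2M there were 0 of 1711, with an exact upper limit of 2.15 per 1000, more than any other library had (3 peaks of the list, the limit used for a count of 0, would be 1.75 per 1000). Shortened in proportion to the Halo-Sox2 list, the 9 Halo-Sox2D peaks become 4.27, against 2 Halo-Sox2 peaks. Shortened to the endogenous Sox2 list they become 4.65, against 1 endogenous Sox2 peak. The ratio per listed peak was 2.13 for Halo-Sox2D over Halo-Sox2 (0.442 to 20.3) and 4.65 for Halo-Sox2D over endogenous Sox2 (0.645 to 204). Both intervals include equal shares, so with so few peaks no difference beyond list length was detectable.

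Density per length of window was also compared. Over the summed windows there were 1.02 Halo-Sox2D peaks per 100 kb at the 7 genes, the same to 3 digits as the 1.02 over the windows of all protein-coding genes. Windows of neighbouring genes overlap, so a peak can be counted more than once in the values for all genes (32960 counts from 13833 Halo-Sox2D peaks). For Halo-Sox2 the densities were 0.226 at the 7 genes and 0.361 at all genes, and for endogenous Sox2 0.113 and 0.363. The median number of Halo-Sox2D peaks per gene was 1 at the 7 genes and 1 at all genes, and for each of the other libraries both medians were 0. The windows of the 7 genes were somewhat short, with a median of 104.1 kb against 117.2 kb for all protein-coding genes, and had a median of 2 neighbouring protein-coding genes against 3.

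Combinations of libraries were counted as well. Gata4, Gsc and Mesp1, 3 of the 7, had a Halo-Sox2D peak and neither a Halo-Sox2 nor an endogenous Sox2 peak, as did 23.7% of all protein-coding genes. A Halo-Sox2D peak without a Halo-Sox2 peak was found at 4 of 7 genes (32.6% of all), and without an endogenous Sox2 peak also at 4 of 7 (35.5%). No gene of the 7 had peaks of both Halo-Sox2 and endogenous Sox2, against 15.4% of all genes. No peak of the 12 had a centre of another library within 500 bp. Over the whole lists, 20.9% of Halo-Sox2D peaks, 43.4% of Halo-Sox2 peaks and 53.8% of endogenous Sox2 peaks had one, repeated sequence included.

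The 9 Halo-Sox2D peaks were placed in 2 kinds of surroundings. There were 4 inside or within 1 kb of a protein-coding gene (Fdft1, Fitm2, Hnf4a and Wdr93), against 61.1% of the Halo-Sox2D peaks on the chromosomes, and 5 were over 20 kb from any, at Gata6 and Gsc, against 20.7%. The windows of Gata6 and Gsc held no other protein-coding gene, and 2 of these 5 peaks were the Gsc pair with centres 0.0855 kb apart. When each peak was given only to its nearest protein-coding gene within 50 kb, Halo-Sox2D peaks were counted at Gata6, Hnf4a and Gsc (3 of 7 genes, 30.6% of all), Halo-Sox2M peaks at 0 of 7 (2.74%) and Halo-Sox2 peaks at Gata6 and Foxa2 (2 of 7, 15%). No gene of the 7 then had an endogenous Sox2 peak (0 of 7, 13%). Inside gene bodies alone, Halo-Sox2D had a peak at 1 of 7 genes (20.4% of all), and Halo-Sox2M, Halo-Sox2 and endogenous Sox2 at 0 of 7 (1.31, 9.05 and 7.41%).

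The nearest peak at any distance was also measured. For Halo-Sox2D it lay 0 kb from Hnf4a, 5.81 kb from Mesp1, 20.8 kb from Gata4, 22.8 kb from Gsc, 26.7 kb from Gata6, 51.7 kb from Mixl1 and 356.4 kb from Foxa2. The median, 22.8 kb, stood beside 31.6 kb for all protein-coding genes. Halo-Sox2M peaks lay 232.1 to 3917 kb away, with a median of 2377 kb against 1028 kb. Halo-Sox2 peaks lay 2.05 to 290.8 kb away, with a median of 186.8 kb against 117.3 kb. Endogenous Sox2 peaks lay 43.3 to 654.2 kb away, with a median of 121.7 kb against 143.8 kb. The limit of 50 kb thus fell just beyond the Halo-Sox2 peak of Gata6 at 47.99 kb and just short of the Halo-Sox2D peak of Mixl1 at 51.7 kb, while endogenous Sox2 peaks lay 70.8 kb from Gata4 and 73.4 kb from Mesp1.

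**Figure D2:**
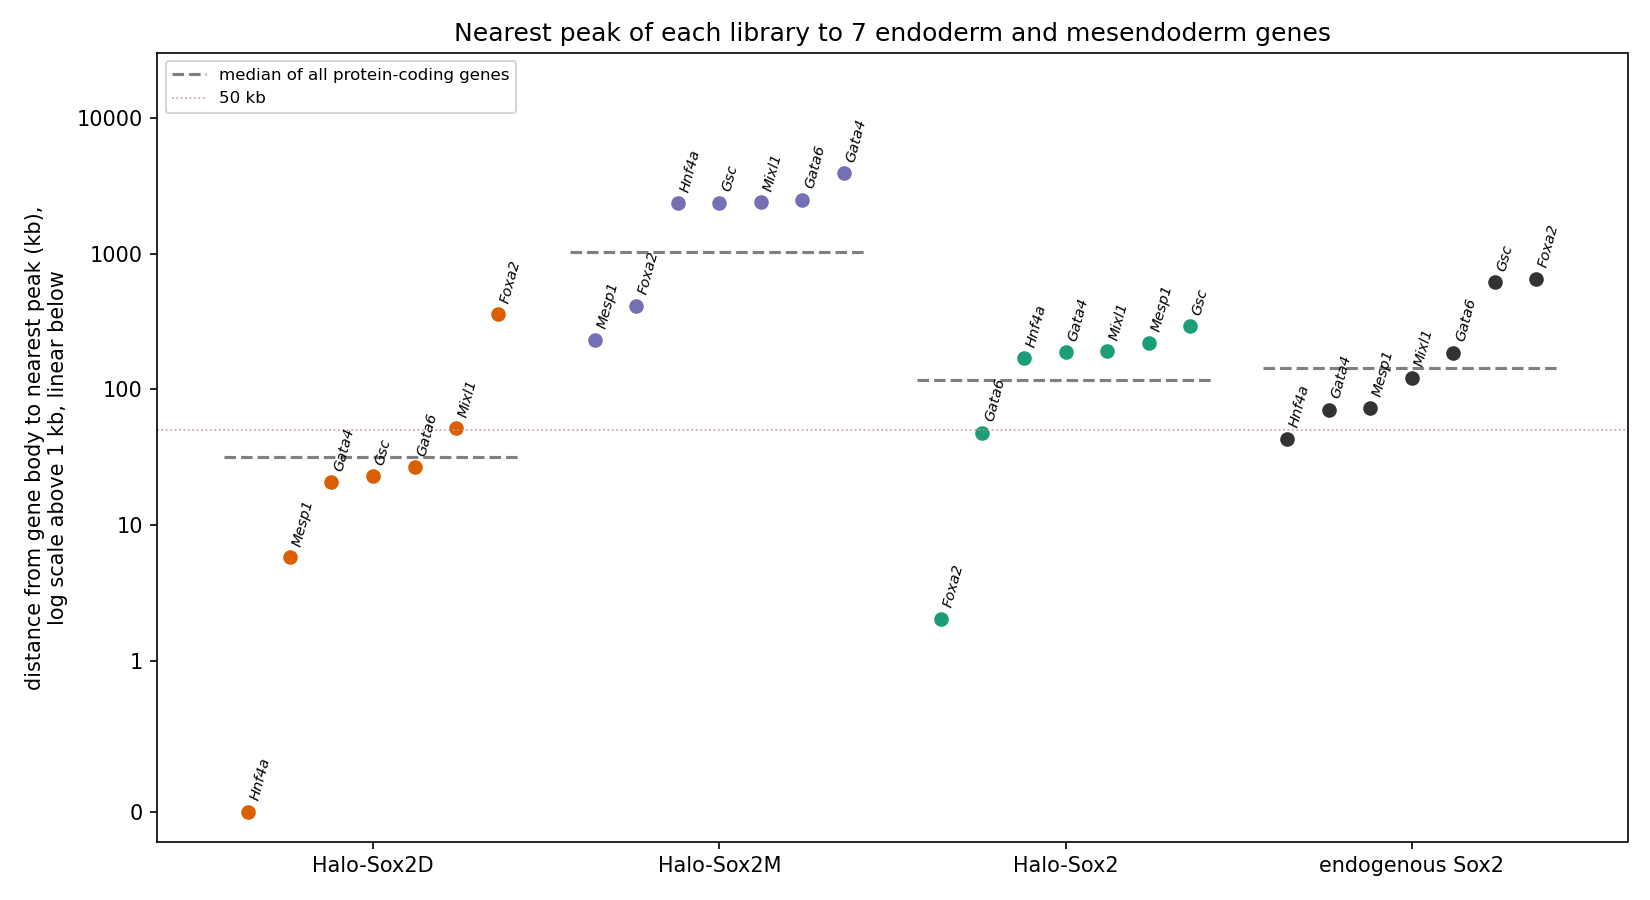
Distance in kb from the body of each of the 7 genes to the nearest peak of each library, on a scale that is logarithmic above 1 kb and linear below; each point is a gene, the dashed lines are medians over all protein-coding genes and the dotted line marks 50 kb. Halo-Sox2D points run from 0 kb at Hnf4a to 356.4 kb at Foxa2, where Halo-Sox2 has its nearest peak at 2.05 kb.

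A further list of 27 genes of the same lineages put these counts in their pathway. Halo-Sox2D had a peak at 25 of the 27 (92.6%, 75.7 to 99.1%), Halo-Sox2M at 1, Halo-Sox2 at 8 (29.6%, 13.8 to 50.2%) and endogenous Sox2 at 4 (14.8%, 4.19 to 33.7%). The interval of Halo-Sox2D lay above its share of all protein-coding genes, 57.7%, and those of the other libraries included theirs. The list of 27 was chosen with earlier results of these data known, and the intervals treat genes of 1 library as independent. The place of the Halo-Sox2D interval is therefore no test of a difference from other genes. The median was 1 Halo-Sox2D peak per gene in this list, as over all genes, and by nearest gene the Halo-Sox2D count was 11 of 27, against 30.6% of all genes counted in that way. By role, Halo-Sox2D reached 8 of 9 endoderm factors, 10 of 10 genes of the primitive streak and mesendoderm, and 7 of 8 Nodal and Wnt signals and effectors. Halo-Sox2M reached 1, 0 and 0 of these, Halo-Sox2 3, 2 and 3, and endogenous Sox2 1, 2 and 1.

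Acvr1b, a type I receptor of Nodal and activin, had 3 Halo-Sox2D, 3 Halo-Sox2 and 2 endogenous Sox2 peaks. Sox17, a definitive endoderm factor, and Acvr2b, a type II activin receptor, had no peak in any library. Of the 27 genes, those nearest to the mean of the 7 in peaks per 1000 listed peaks over the 4 libraries were Foxa1, Lhx1, Mesp2, Msgn1 and Nodal, at a Euclidean distance of 0.0522, tied with 3 more. Each had 1 Halo-Sox2D peak and no other, and that of Mesp2 was the same peak that was counted at Mesp1. With counts this low the likeness carries little detail.

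Factors of other lineages were set beside these genes, with Eomes, a T-box factor of both primitive streak and trophoblast, counted in the list of 27 and again among the trophoblast factors. Of 15 neural factors, 11 had a Halo-Sox2D peak, 0 a Halo-Sox2M peak, 7 a Halo-Sox2 peak and 4 an endogenous Sox2 peak. Of 9 trophoblast factors, 7 had a Halo-Sox2D peak, 1 a Halo-Sox2M peak, 3 a Halo-Sox2 peak and 6 an endogenous Sox2 peak (66.7%, 29.9 to 92.5%). The shares of all protein-coding genes were 57.7% with Halo-Sox2D, 6.37% with Halo-Sox2M, 32.3% with Halo-Sox2 and 27.4% with endogenous Sox2. The trophoblast interval of endogenous Sox2 lay above its share of all genes, and the other intervals of these 2 lists included theirs. These lists too were chosen with earlier results of these data known, and the intervals treat genes of 1 library as independent. The place of the trophoblast interval is therefore no test of a difference from other genes. For endogenous Sox2 the interval of the 7 endoderm and mesendoderm genes, 0.361 to 57.9%, overlapped that of the trophoblast factors. Whether the lists differ was not tested.

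**Figure D3:**
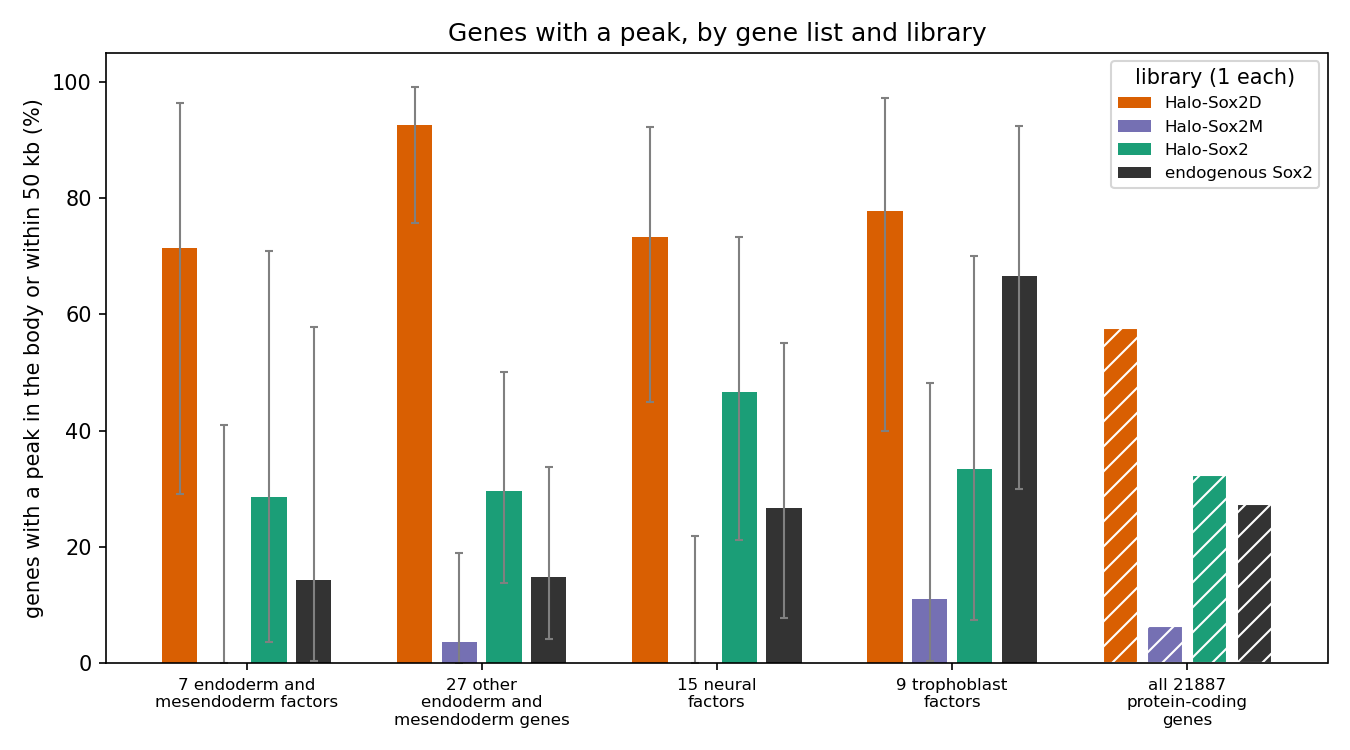
Share of genes with a peak in the body or within 50 kb, in percent, by gene list and library, with 1 library per bar; error bars are exact 95% binomial intervals over genes and hatched bars give all protein-coding genes. For the 7 genes Halo-Sox2D stands at 71.4%, Halo-Sox2M at 0%, Halo-Sox2 at 28.6% and endogenous Sox2 at 14.3%, each with an interval that includes its hatched bar.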

How the data were processed

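The files are lists of ChIP-exo peaks, 1 for each of 4 libraries from D3 cells, and each library is its own group. The submitters' processing notes name Bowtie2 and mm10. How peaks were called and reads filtered is not given in the sources used here. For each peak the authors deposited chromosome, start and end without any score. Starts were read as 0-based and are printed 1-based. Peak width was 1 to 20 bp. A caller's threshold and depth set how many peaks are listed, and mapping decides which repeats can hold any.

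Gene bodies came from RefSeq (GRCm38.p6), and all members and list symbols matched. Strand and starts came from the promoter table. Peak centres were counted in gene bodies and 50 kb around them with pandas 2.3.3 and numpy 2.4.6 under Python 3.11.15, and exact binomial intervals came from scipy 1.17.1. The counting was tested on simulated data. No model was fitted.

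The members and gene lists were chosen with earlier results of these data known. Named were all members, genes holding or nearest to their peaks, genes of the list of 27 with peaks in 3 or more libraries or in none, and the 5 most like the members. Some genes that met the rule are left out of the text. Windows of 20 and 100 kb, nearest genes, peaks joined within 500 bp, omission of 100 kb bins with 15 or more peaks, and other distances between libraries were tried. Without scores, no stricter threshold could be set.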

Additional observations from a re-analysis of the deposited data

How the results depend on the processing

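With windows of 20 kb, 2 Halo-Sox2D peaks at 2 of the 7 genes, 1 Halo-Sox2 peak at 1 gene and 0 endogenous Sox2 peaks at 0 genes were counted, and of the list of 27 genes 0 had a Halo-Sox2M and 5 a Halo-Sox2 peak. With 100 kb there were 17 Halo-Sox2D peaks and 3 endogenous Sox2 peaks at 3 of the 7 genes, and 2 and 9 of the 27 genes had a Halo-Sox2M and an endogenous Sox2 peak. By nearest gene, 4 Halo-Sox2D peaks at 3 genes and 0 endogenous Sox2 peaks at 0 genes were left, and 11, 0 and 3 of the 27 genes had a Halo-Sox2D, a Halo-Sox2M and a Halo-Sox2 peak. The share of all protein-coding genes moved too. For Halo-Sox2D it was 43.4% at 20 kb, 69.2% at 100 kb and 30.6% by nearest gene. For Halo-Sox2M it was 3.63, 9.92 and 2.74%, for Halo-Sox2 20.4, 46.3 and 15%, and for endogenous Sox2 16.9, 41.0 and 13%. A narrower window or a single gene per peak counts fewer peaks by construction. Within 5 kb, 1 Halo-Sox2D peak had an endogenous Sox2 centre. The other 57 of these summary values stayed within 1.5 times the reported count, among them all with peaks joined or dense bins left out. Many of the 57 were counts of 0 that stayed 0, for Halo-Sox2M at the 7 genes and between libraries. Those say little about how steady the results are. No paired analysis was possible because each group had 1 library. Unknown depth limits every count of 0.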

Other observations

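The genes named here were picked out of the list of 27 after their values were seen. At Eomes, a T-box factor of the primitive streak, a Halo-Sox2D peak (chromosome 9, 118482472 to 118482480) and a Halo-Sox2 peak (118482456 to 118482468) lay inside the gene with centres 0.014 kb apart. Of the 65 peaks in the windows of the 27 genes, 4 had a centre of another library within 500 bp, this pair among them.

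Otx2, a homeobox factor of anterior mesendoderm and neural tissue, had 1 Halo-Sox2D peak, inside the gene, and 4 endogenous Sox2 peaks. Of these endogenous Sox2 peaks, 1 lay 2.88 kb below the gene, and the rest lay together, 33.4, 33.4 and 33.5 kb above it. Snai1, a zinc finger repressor of epithelial genes, had 1 Halo-Sox2D peak, 35.1 kb away, and 1 endogenous Sox2 peak, 8.03 kb away. Tdgf1, the Nodal co-receptor gene, had 3 Halo-Sox2D peaks, all inside the neighbouring gene Lrrc2, and no peak of another library. Foxh1, a partner of Smad2, had 5 Halo-Sox2D peaks, of which 2 lay inside Foxh1. It also had 1 Halo-Sox2 peak, 1.11 kb from Foxh1 and inside Kifc2. None of the 23 start windows of 20 of these genes held a peak of any library; of all windows 4.46% held a Halo-Sox2D centre and under 1% one of each other library, so this 0 says little.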
